A study of Homo sapiens with 8 samples.

Results

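The SOX genes encode transcription factors that share a high-mobility-group (HMG) DNA-binding box. They were followed here in HepG2 cells, an established human hepatocarcinoma line, after inhibition of EZH1 and EZH2. The set was formed by 9 names, SOX4, SOX5, SOX6, SOX8, SOX9, SOX11, SOX12, SOX13 and SOX18, and a member was any of these 9 symbols with a row in the deposited table. There were 8 such genes among 25603, and all 8 passed the filter that left 20153 genes for testing, a mean estimated FPKM of at least 0.1, which each of them also exceeded in vehicle alone. SOX11 was not analysed here. The names were selected on the EZHi and vehicle levels seen in earlier results of these same libraries, so the differences and calls given for these genes describe them and support nothing further. To place them in their family, 20 SOX family symbols (SRY included) were looked up, of which 14 were in the table and 10 were tested. The additional tested genes were SOX7 and SOX15.

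RNA-seq had been performed on cells cultured for 4 days with UNC1999 and valemetostat tosylate, each at 1 µM (denoted EZHi), or with the DMSO vehicle, at 0.2% per the labels. There were 4 libraries in each group, and cells of both groups were grown in a medium that contained dexamethasone and insulin. HepG2 is a tumour line, so the levels below are those of a transformed hepatic cell and not of a hepatocyte in tissue. Since libraries were made from whole cultures, a gene expressed in fewer cells and a gene with less RNA per cell cannot be told apart.

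EZH1 and EZH2 are the catalytic subunits of the polycomb repressive complex 2 (PRC2), which places methyl groups on lysine 27 of histone H3, a mark found at silent developmental genes. SOX proteins bind the minor groove of DNA and bend it, and the family is divided into groups by the sequence of the HMG box. SOX9 is known in the liver as a factor of biliary cells, SOX4 acts with it in bile duct development, SOX5 and SOX6 assist SOX9 in cartilage, and SOX18 acts in endothelial cells. The study clustered mouse liver promoters, but only of transcription factor genes up-regulated when hepatocytes transdifferentiate to cholangiocytes. Other genes were not classified, and the listing was held here only in shortened form. Sox4, Sox8, Sox11 and Sox18 were listed in the cluster with the strongest H3K27me3 mark. Sox9 was in the intermediate cluster, which carries this mark at a moderate level, and Sox13 in the active one. For the intermediate and strongest clusters, each as a set, the paper reported derepression in HepG2 cells given these inhibitors.

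A stretch of 27 coding bases of the HMG box is shown, because the grouping used below rests on this box. It starts at the first codon of the conserved motif RPMNAFMVW, by which the box was located, and not at an annotated domain start. The bases were read from the canonical transcripts of GENCODE 44 (GRCh38). They are written in the direction of transcription, with capitals at the bases that differ from SOX9.
SOX4: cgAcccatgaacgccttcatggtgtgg
SOX12: AggccGatgaacgcAttcatggtgtgg
SOX5: cgTccAatgaaTgccttcatggtgtgg
SOX6: cgAccAatgaaTgcAttcatggtTtgg
SOX13: Aggcccatgaacgccttcatggtgtgg
SOX8: cggcccatgaacgcAttcatggtgtgg
SOX9: cggcccatgaacgccttcatggtgtgg
SOX18: cggcccatgaacgccttcatggtgtgg

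These bases lie at chr6:21594715-21594741 (+, exon 1) for SOX4, chr20:326048-326074 (+, exon 1) for SOX12, chr12:23543284-23543310 (-, exon 13) for SOX5 and chr11:15989070-15989096 (-, exon 14) for SOX6. They lie at chr1:204123705-204123731 (+, exon 12) for SOX13, chr16:982232-982258 (+, exon 1) for SOX8, chr17:72121710-72121736 (+, exon 1) for SOX9 and chr20:64049232-64049258 (-, exon 1) for SOX18. SOX18 carried 0 differences from SOX9 over this stretch, although it belongs to another group. The search for this motif largely fixed the encoded amino acids, so closeness over these bases is not a finding. Over 207 coding bases from the start of this motif, taken as the box, the 5 pairs of genes of the same group were 79.7% to 91.8% identical. The 23 pairs of different groups were 55.1% to 79.2% identical. SOX8 and SOX9 were the most alike, at 91.8%, followed by SOX4 and SOX12 at 85.5% and SOX5 and SOX13 at 84.1%. Closeness within a group is part of how the groups are defined and is not a finding. The values below show how far expression differed within groups.

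Expression is given as deposited, in log2 units corrected for transcript length, and is also expressed as an estimated FPKM, where a log2 value of 4.68 stands for an estimated FPKM of 1. Differences are EZHi minus vehicle on the log2 scale, and genes with a Benjamini-Hochberg adjusted p under 0.05 in limma are described as called. Of the SOX genes 2 were called higher, SOX8 and SOX6, and 0 were called lower. At an unadjusted p under 0.05 there were 4 higher and 0 lower, beside 14.7% and 12.0% of all genes. For comparison, 13.1% of all genes tested were called, 8.85% higher and 4.27% lower. Both called genes were more than 2-fold higher, as were 3.21% of all genes. Of the 8 members 6 were higher in 4 of 4 replicate pairs, as were 20.6% of all genes. The 10 tested SOX genes had a median difference of 0.24, with 7 positive, beside a median of -0.0077 over all genes, of which 48.0% had a positive difference. With the replicate number as a block, 5 SOX genes were called higher (SOX4, SOX5, SOX6, SOX8 and SOX9) and 0 lower, where 14.9% of all genes were called higher and 15.1% lower.

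**Figure D1:**
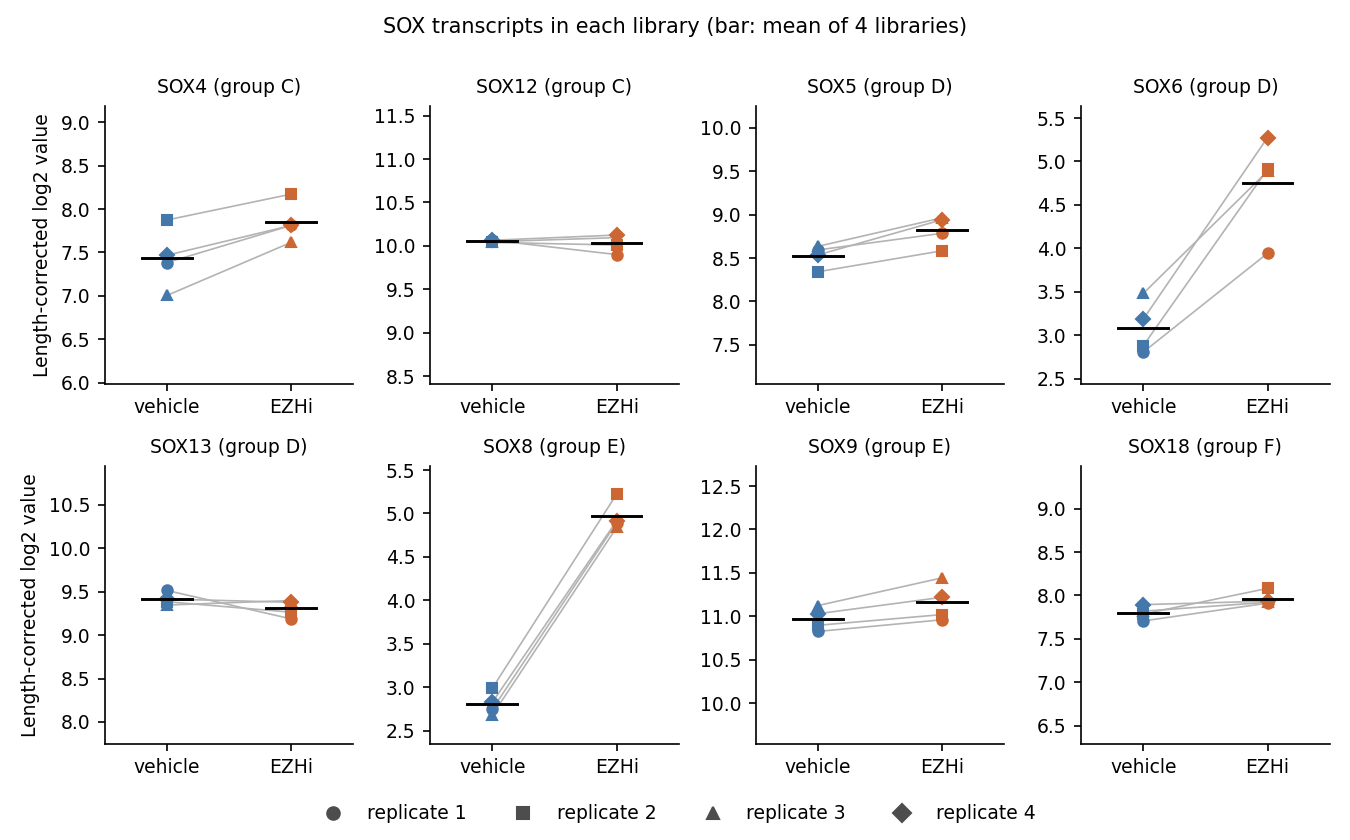
Length-corrected log2 level of the 8 SOX members in the 4 vehicle and 4 EZHi libraries, each symbol being 1 library, lines joining libraries of equal replicate number and bars marking group means, with axes of equal span. SOX8 and SOX6 sit apart between the groups, with SOX8 at 2.68 to 2.99 in vehicle and 4.84 to 5.22 in EZHi, whereas the points of SOX12 and SOX13 intermingle.

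In group E, which holds SOX8, SOX9 and SOX10, the low gene SOX8 rose, and the abundant SOX9 was called only with the replicate block. SOX8 (ENSG00000005513, chr16:981770-986979, +) encodes a factor known from neural crest, glia and testis. Its log2 level was 2.75, 2.99, 2.68 and 2.83 in vehicle replicates 1 to 4, and 4.89, 5.22, 4.84 and 4.91 in the EZHi replicates. All 4 EZHi libraries were far above all 4 vehicle libraries, and the spread within each group was small. The mean went from 2.81 ± 0.13 to 4.97 ± 0.17 (SD, n = 4), a difference of 2.16 (SE 0.12, 95% interval 1.89 to 2.42, limma adjusted p = 5.39e-06), or 4.46-fold. By signed difference, counted from the highest rise down, SOX8 ranked 85 among the 20153 genes tested. Its estimated FPKM went from 0.27 to 1.23, which corresponded to about 25.5 and 114 normalized reads per library, so the gene remained at a low level after treatment.

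SOX9 (ENSG00000125398, chr17:72121020-72126416, +), the biliary and cartilage factor, was the most abundant SOX gene in both groups. It was at 10.83, 10.90, 11.12 and 11.03 in vehicle and at 10.96, 11.02, 11.44 and 11.22 in EZHi. The groups overlapped, but each EZHi library was above the vehicle library of the same number. The difference was 0.19 (SE 0.11, 95% interval -0.06 to 0.44, limma adjusted p = 0.323), with pair differences of 0.12 to 0.32 and an adjusted p of 0.0156 in limma with the replicate block. It was 0.098 without EZHi replicate 3 and 0.31 with quantile normalization. The distance between both genes thus narrowed within libraries, SOX9 being on average 286-fold above SOX8 in vehicle and 73.2-fold above it in EZHi. SOX10, the glial and melanocytic member of this group, was under the filter in both groups, at -0.79 to -0.64 in vehicle and -0.79 to -0.39 in EZHi.

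In group D, SOX6 rose, SOX5 had a small positive difference and SOX13 was not called. SOX6 (ENSG00000110693, chr11:15966449-16739591, -), which is known for its part in cartilage, muscle and red blood cell maturation, was at 2.81, 2.88, 3.48 and 3.19 in vehicle and at 3.94, 4.91, 4.89 and 5.28 in EZHi. The lowest EZHi library was above the highest vehicle library, and the EZHi libraries varied more than the vehicle ones. The mean went from 3.09 ± 0.31 to 4.75 ± 0.57, a difference of 1.67 (SE 0.27, 95% interval 1.07 to 2.27, limma adjusted p = 0.00275), or 3.18-fold. Its estimated FPKM went from 0.34 to 1.11 and its normalized reads from about 27.1 to 89.0. By signed difference, from the highest rise down, SOX6 ranked 204 among all genes tested.

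SOX5 (ENSG00000134532, chr12:23529504-24562544, -), the partner of SOX6 in cartilage, was at 8.59, 8.34, 8.63 and 8.54 in vehicle and at 8.78, 8.58, 8.96 and 8.94 in EZHi. The groups overlapped only through EZHi replicate 2, at 8.58. The difference was 0.29 (SE 0.10, 95% interval 0.06 to 0.52, limma adjusted p = 0.0982). It was positive in 4 of 4 pairs, at 0.19 to 0.41, and had an adjusted p of 0.00475 in limma with the replicate block. Without EZHi replicate 2 the difference was 0.37 and passed the threshold without a block (limma adjusted p = 0.0361).

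SOX13 (ENSG00000143842, chr1:204073115-204127743, +) was at 9.51, 9.38, 9.35 and 9.42 in vehicle and at 9.19, 9.26, 9.40 and 9.38 in EZHi. These values overlapped, with a difference of -0.11 (SE 0.07, 95% interval -0.27 to 0.05, limma adjusted p = 0.383). The difference shrank to -0.013 with centring on abundant genes, to -0.037 with quantile normalization and to -0.068 without EZHi replicate 1. The 3 genes of the group therefore covered a range of differences from -0.11 to 1.67. SOX13 was on average 80.3-fold above SOX6 in vehicle libraries and 23.4-fold above it in EZHi libraries.

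**Figure D2:**
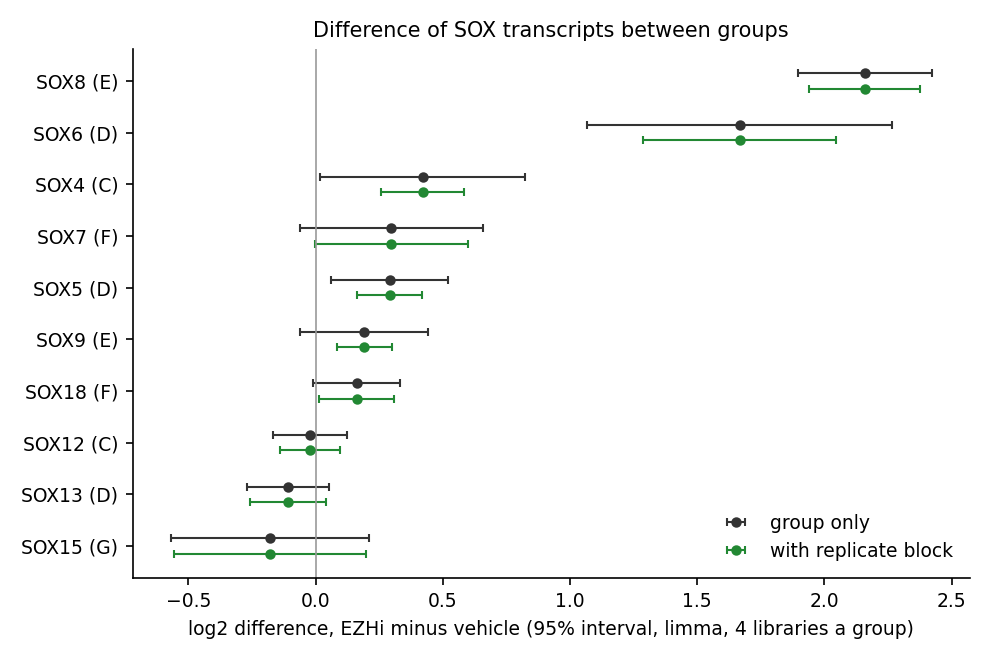
Log2 difference (EZHi minus vehicle) of each tested SOX gene with its 95% interval from limma, without (black) and with (green) the replicate block. SOX8 at 2.16 and SOX6 at 1.67 lie apart from the others, which run from -0.18 to 0.42.

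In group C, SOX4 had a positive difference that varied between libraries and SOX12 had one close to 0. SOX4 (ENSG00000124766, chr6:21593751-21598619, +), a factor of progenitor and tumour cells that acts in bile duct development, was at 7.38, 7.87, 7.01 and 7.47 in vehicle and at 7.81, 8.17, 7.62 and 7.81 in EZHi. The groups overlapped, because vehicle replicate 2 was above 3 of the EZHi libraries. The difference was 0.42 (SE 0.18, 95% interval 0.02 to 0.82, limma adjusted p = 0.169). Same-numbered libraries stood high or low together, so that the pair differences were 0.30 to 0.61 and the adjusted p was 0.00259 in limma with the replicate block. Without vehicle replicate 3 the difference was 0.28 and without vehicle replicate 2 it was 0.57, neither of which was called.

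SOX12 (ENSG00000177732, chr20:325552-330224, +) was at 10.07, 10.04, 10.05 and 10.06 in vehicle, the narrowest spread among the tested SOX genes, and at 9.90, 10.01, 10.09 and 10.12 in EZHi. Its difference was -0.02 (SE 0.06, 95% interval -0.17 to 0.12, limma adjusted p = 0.879), and this sign turned positive under quantile normalization, under centring on abundant genes and without EZHi replicate 1.

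In group F, SOX18 (ENSG00000203883, chr20:64047582-64049639, -), the endothelial factor, was at 7.71, 7.79, 7.82 and 7.89 in vehicle and at 7.91, 8.08, 7.92 and 7.93 in EZHi. The groups did not overlap, yet the highest vehicle and the lowest EZHi library were nearly equal. The difference was 0.16 (SE 0.08, 95% interval -0.01 to 0.33, limma adjusted p = 0.213). Centring on abundant genes gave 0.26 and a limma adjusted p of 0.0466. With that centring 2550 of the 20153 genes tested were called higher and 319 lower, beside 1784 and 860 without it. SOX8, SOX6 and SOX18 were thus the 3 members whose groups did not overlap, where 10.7% of all genes tested were higher without overlap and 7.93% lower.

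SOX7, of the same group and also endothelial, was near the lower limit of the tested range. It was at 1.45, 1.95, 1.63 and 1.32 in vehicle and at 2.14, 2.01, 1.51 and 1.87 in EZHi, with a difference of 0.30 (limma adjusted p = 0.279) on about 9.78 and 12.0 normalized reads. SOX15, the only gene of group G, was at 3.46, 2.90, 3.52 and 3.64 in vehicle and at 2.96, 3.42, 3.05 and 3.37 in EZHi, with a difference of -0.18 (limma adjusted p = 0.574). Without 1 library this ran from -0.34 (without vehicle replicate 2) to -0.092 (without vehicle replicate 4), and was also nearer to 0 without EZHi replicate 1, at -0.099. Both genes overlapped between the groups.

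Levels could be compared between genes because the values are corrected for length. The order in vehicle, by estimated FPKM (mean ± SD over 4 libraries), was SOX9 at 78.6 ± 7.28, SOX12 at 41.5 ± 0.37, SOX13 at 26.7 ± 1.35, SOX5 at 14.4 ± 1.25, SOX18 at 8.72 ± 0.47 and SOX4 at 6.90 ± 1.71. A wide step separated these 6 genes from SOX15 at 0.41 ± 0.09, SOX6 at 0.34 ± 0.07, SOX8 at 0.27 ± 0.03 and SOX7 at 0.12 ± 0.02. Neighbours in this order overlapped for SOX18 and SOX4, for SOX15 and SOX6, and for SOX6 and SOX8. In EZHi the first 6 positions were the same, and SOX8 at 1.23 ± 0.15 and SOX6 at 1.11 ± 0.38, which overlapped, came before SOX15 at 0.36 ± 0.06. Both genes called higher, SOX8 and SOX6, were in the low range, where SOX15 and SOX7 were not called. The share of all genes called higher was 13.8% at an estimated FPKM of 0.1 to 1, 11.3% at 1 to 10 and 2.73% at 10 or more. Level here is the mean over all 8 libraries, as in the filter. A gene near 0 in vehicle could thus enter the lowest class through its EZHi level, so these shares do not show a dependence on level in vehicle.

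**Figure D3:**
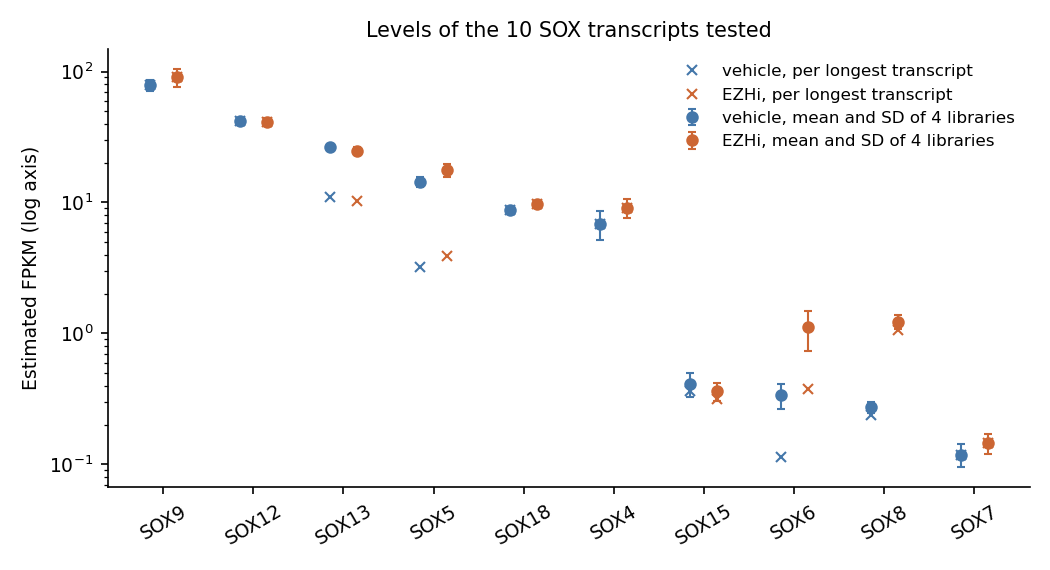
Estimated FPKM of the tested SOX genes on a log axis in vehicle and EZHi libraries, ordered by level in vehicle, where dots and bars are the mean and SD of 4 libraries and crosses the mean level with the longest transcript length. SOX9 is highest in both groups, and SOX8 and SOX6 move from about 0.3 to just over 1, below SOX4 and above SOX15.

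SOX9 made up 44.1% ± 2.58 of the summed estimated FPKM of the 10 genes in vehicle libraries and 46.0% ± 2.86 in EZHi libraries. SOX8 went from 0.15% to 0.64% of that sum and SOX6 from 0.19% to 0.56%. The sum itself was 178 ± 6.25 in vehicle and 195 ± 18.5 in EZHi, and these ranges overlapped. The levels of SOX5, SOX6 and SOX13 depend on the transcript length used, since these genes have many annotated transcripts of unequal length. With the longest transcript in place of the mean length, SOX13 was at 11.1, SOX5 at 3.20 and SOX6 at 0.11 in vehicle, which placed SOX5 after SOX18 and SOX4, placed SOX6 last, after SOX8 and SOX7, and left SOX9, SOX12 and SOX13 first in that order. Differences between groups do not depend on this length.

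The start sites of 5 members (SOX4, SOX5, SOX6, SOX12 and SOX13) were matched in the RefSeq promoter table (GRCh38.p14), which gives 250 bases before to 50 bases after each start. SOX8, SOX9, SOX11 and SOX18 were not matched. The promoters of SOX6, at the most upstream of its 5 starts, and of SOX12 are shown because CpG-rich promoters are the usual targets of PRC2 and because SOX6 was called and SOX12 was not. They are SOX6 at chr11:16738428-16738727 (-) and SOX12 at chr20:325302-325601 (+), with each CG in capitals.
SOX6: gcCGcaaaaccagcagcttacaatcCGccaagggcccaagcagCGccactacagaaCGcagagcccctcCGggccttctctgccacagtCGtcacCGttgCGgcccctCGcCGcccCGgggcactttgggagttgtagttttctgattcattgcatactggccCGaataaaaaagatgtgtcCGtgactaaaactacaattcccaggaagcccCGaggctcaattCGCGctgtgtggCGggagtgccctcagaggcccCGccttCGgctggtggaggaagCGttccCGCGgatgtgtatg
SOX12: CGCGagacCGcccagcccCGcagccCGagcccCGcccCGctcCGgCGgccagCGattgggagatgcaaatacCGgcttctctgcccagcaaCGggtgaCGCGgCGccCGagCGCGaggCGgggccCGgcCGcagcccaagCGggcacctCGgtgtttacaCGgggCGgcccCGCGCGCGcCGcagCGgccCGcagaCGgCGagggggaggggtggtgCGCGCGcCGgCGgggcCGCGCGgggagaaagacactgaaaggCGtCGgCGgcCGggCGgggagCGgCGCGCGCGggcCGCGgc

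The SOX12 window held 54 CG dinucleotides, more than 99.3% of the 14003 promoters compared, whose median was 24. These were the first listed promoter of each gene symbol that was also in the expression table. SOX5 held 29, the SOX6 window 22, SOX13 15 and SOX4 8, and the other 4 starts of SOX6 held 0 to 2. SOX6, the only called gene among these 5, was close to that median only at its most upstream start, the richest of its starts. SOX12, the richest, showed a difference of -0.02, whose sign depended on the scaling as stated above.

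Genes near the members were examined, since expression was counted without regard to strand. Within 100 kb of a member's start site 38 genes were in the table and 30 were tested, of which 2 were called higher and 2 lower, or 13.3% beside the 13.1% of all genes. With the replicate block 5 were called higher and 7 lower, which is 40% of them, beside 14.9% of all genes higher and 15.1% lower. At SOX8 the called gene was CEROX1 (ENSG00000260807, chr16:975761-981596, -), a long non-coding RNA that starts 174 bp upstream of SOX8 on the opposite strand. Its log2 level was 3.86, 4.10, 4.07 and 4.02 in vehicle and 5.66, 5.44, 6.09 and 5.67 in EZHi. The groups were far apart, with a difference of 1.70 (SE 0.14, 95% interval 1.38 to 2.02, limma adjusted p = 5.34e-05). CEROX1 and SOX8 share 0 annotated exonic bases, but reads from unannotated extensions of either gene could not be assigned by strand.

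LMF1, a lipase maturation factor gene whose outermost GENCODE start lies 452 bp upstream of SOX8, had a difference of 0.27 (limma adjusted p = 0.216, and 0.019 with the replicate block). Its RefSeq start windows, at chr16:970935-971234 and chr16:970950-971249, lie farther from SOX8. SSTR5, a somatostatin receptor gene on the other side, had one of -0.39 (limma adjusted p = 0.0729, and 0.00154 with the block), and SSTR5-AS1 had one of -0.32 (limma adjusted p = 0.175, and 0.0071 with the block). At this locus SOX8 and CEROX1 were thus called higher in both fits, and with the block LMF1 was called higher and SSTR5 and SSTR5-AS1 lower.

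**Figure D4:**
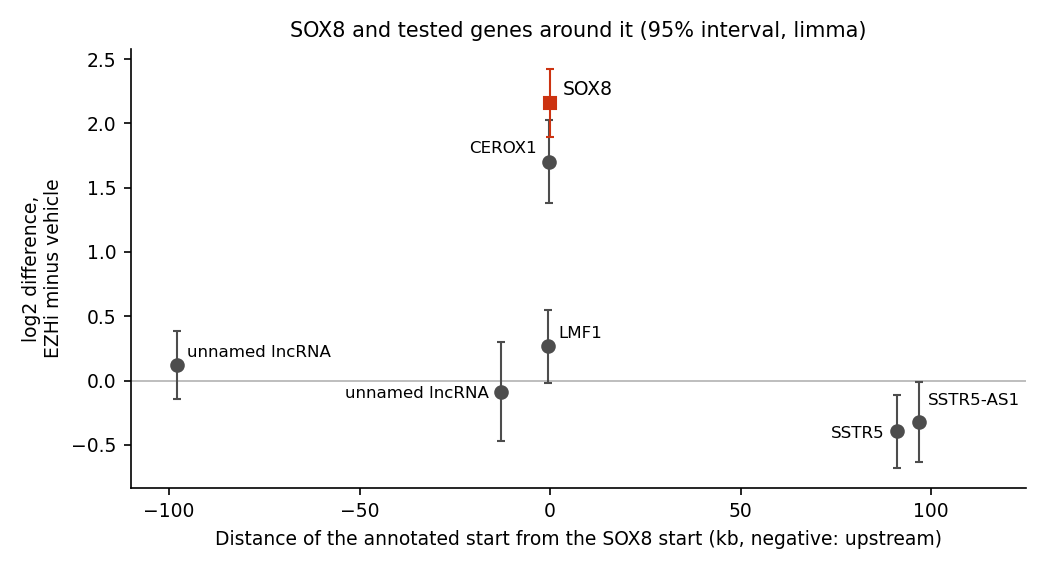
Log2 difference (EZHi minus vehicle) with its 95% interval for tested genes within 100 kb of the SOX8 start site, plotted against their distance from it in kb. SOX8 at 2.16 and CEROX1 at 1.70 stand above their neighbours, whose values include 0.27 for LMF1 and -0.39 for SSTR5.

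At the other members, called neighbours included genes that rose and genes that fell. PLEKHA7, a junction protein gene upstream of SOX6, fell by 0.32 (limma adjusted p = 0.0294). C11orf58, which overlaps SOX6 on the opposite strand with 0 shared exonic bases, had a difference of -0.04. ETNK2, an ethanolamine kinase gene near SOX13, rose by 0.82 (limma adjusted p = 0.000429), and TRIB3, a stress-induced pseudokinase gene near SOX12, fell by 0.56 (limma adjusted p = 0.00215). Near SOX12, limma with the replicate block also called ZCCHC3 higher (adjusted p = 0.0253). The same fit called RBCK1 and TBC1D20 lower there (adjusted p = 0.0094 and 0.00969). NRSN2-AS1, antisense to SOX12, had a difference of 0.09. TCEA2, whose outermost GENCODE start lies 197 bp from that of SOX18, had one of 0.06. Its RefSeq start windows, at chr20:64056722-64057021 and chr20:64062948-64063247, lie farther from SOX18. Of the 11 tested neighbours of SOX18, SAMD10, at -0.35, and C20orf204, at 0.28, were called, and only with the replicate block (adjusted p = 0.00632 and 0.00563). Of 8 antisense or overlapping transcripts of SOX genes that were looked up, 1 was tested and it was not called. It was SOX9-AS1, which overlaps the SOX9 gene with 0 shared exonic bases and was at 4.30, 4.07, 4.75 and 4.68 in vehicle and at 4.90, 4.30, 5.39 and 4.62 in EZHi, a difference of 0.36 (limma adjusted p = 0.388).

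Genes known as targets or partners of SOX proteins, listed by function, were then counted by the same criterion. The lists are short, and their counts stand beside 8.85% of all genes called higher and 4.27% lower. At an unadjusted p under 0.05 these shares were 14.7% and 12.0%, and with the replicate block 14.9% and 15.1%. Among cartilage targets of SOX9, SOX5 and SOX6, 6 of 13 were tested, 3 were called higher and 0 lower (3 higher and 0 lower at an unadjusted p under 0.05), with a median difference of 0.54. COL2A1, the main collagen of cartilage, was at 6.83, 7.24, 7.73 and 7.50 in vehicle and at 10.32, 10.68, 11.86 and 11.27 in EZHi. This was the widest separation of the list, a difference of 3.71 (SE 0.31, limma adjusted p = 5.34e-05). COMP, a cartilage matrix protein gene, rose by 2.66 (limma adjusted p = 0.000429) and COL9A2, a minor cartilage collagen gene, by 0.89 (limma adjusted p = 0.00605). MATN3 had a difference of -0.67 (limma adjusted p = 0.213), and was called lower with the replicate block (adjusted p = 4.37e-05). ACAN, MATN1 and CNMD, further defining genes of chondrocytes, were each under an estimated FPKM of 0.1.

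**Figure D5:**
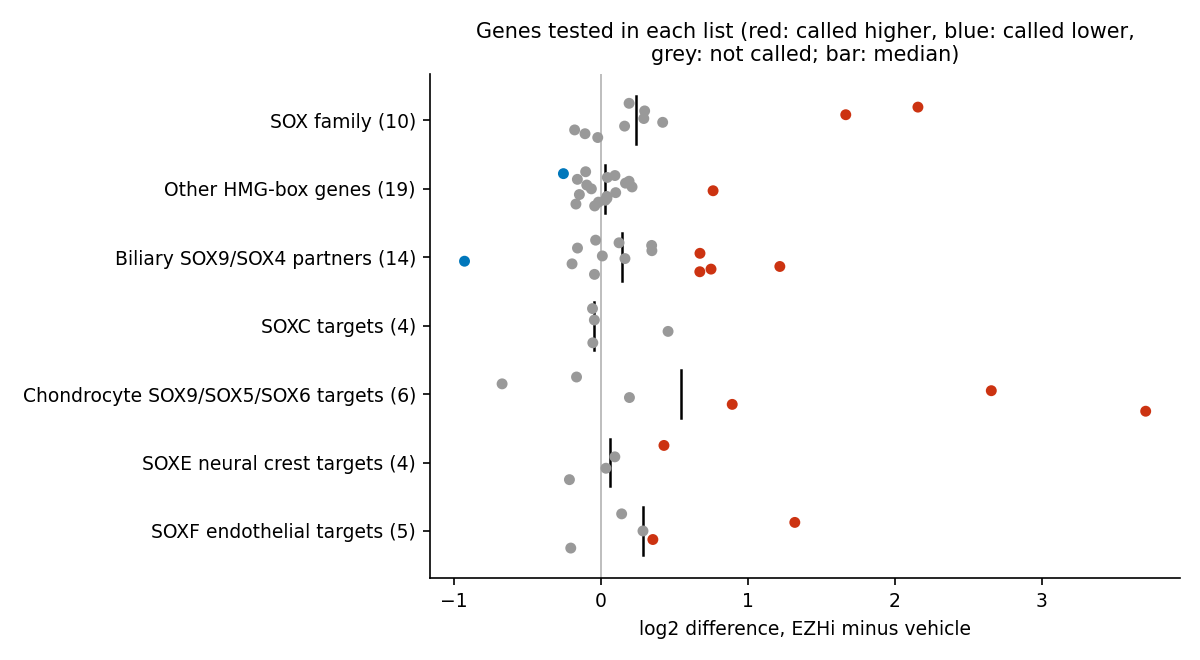
Log2 differences (EZHi minus vehicle) of the tested genes in each SOX-related list, and of the SOX family, each point being 1 gene (red called higher, blue called lower, grey not called in limma), with a bar at the median of each list. Most genes lie close to 0, and COL2A1 at 3.71 and COMP at 2.66 lie farthest above it.

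Among 14 tested biliary partners of SOX9 and SOX4, 4 were called higher and 1 lower, with a median of 0.14. The Notch target HEYL rose by 1.22 (limma adjusted p = 0.00566) and HEY1 by 0.75 (limma adjusted p = 0.00634). HES1, the canonical Notch effector, rose by 0.67 (limma adjusted p = 0.00761), and so did the receptor NOTCH2, by 0.67 (limma adjusted p = 0.000656). JAG1, the Notch ligand of bile duct development, fell by 0.93 (limma adjusted p = 2.4e-05). With the replicate block the counts were 7 higher and 1 lower, where 14.9% of all genes were called higher and 15.1% lower. This list therefore held calls in both directions.

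Of 4 tested neural crest and glial targets of SOXE factors, 1 was called higher and 0 lower, with the same counts at an unadjusted p under 0.05 and a median difference of 0.06. MITF, the melanocyte factor, was called higher, by 0.43 (limma adjusted p = 0.0493), at a low level of about 8.64 to 11.8 normalized reads. Its groups overlapped, as EZHi replicate 3 at 2.04 was below the highest vehicle library at 2.07. ERBB3, a receptor gene first on this list, had a difference of -0.21 (limma adjusted p = 0.415) and was called lower with the replicate block (adjusted p = 0.00435). Of 5 tested endothelial targets of SOXF factors, NOTCH1 rose by 1.32 (limma adjusted p = 0.00411) and the ligand DLL4 by 0.35 (limma adjusted p = 0.0409). PROX1, a lymphatic and hepatic factor, had a difference of 0.14 (limma adjusted p = 0.511). The list held 2 calls higher and 0 lower, beside 8.85% and 4.27% of all genes. At an unadjusted p under 0.05 it held 3 and 0, beside 14.7% and 12.0%.

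Of 4 tested targets of SOXC factors, 0 were called in limma in either direction, at an adjusted or an unadjusted p under 0.05. TEAD2 had a difference of -0.04 (limma adjusted p = 0.9), and with the block only SEMA3C was called, higher (adjusted p = 0.0156). Other genes with an HMG box, 19 of them tested, had a median difference of 0.03 with 1 called in each direction, and 1 higher and 3 lower with the replicate block. LEF1, a Wnt effector, rose by 0.76 (limma adjusted p = 0.00142) at a level of about 4.11 to 7.01 normalized reads, and TOX4 fell by 0.26 (limma adjusted p = 0.0136).

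Defining markers of the cell types in which SOX genes are best known were summed per library as estimated FPKM. All 8 hepatocyte markers were present, at 23959 to 46707 in vehicle and 26330 to 42886 in EZHi, most of which is AFP and ALB. Within that list FGB, a fibrinogen chain gene, rose by 0.92 (limma adjusted p = 0.00167), and with the replicate block APOA1 and APOB were called higher and ALB lower (adjusted p = 0.00812, 0.00155 and 0.0314). Chondrocyte markers, 2 of 5 above 0.1, were at 10.95 to 14.4 in vehicle and 81.1 to 177 in EZHi. Glial and neural crest markers, of which GFAP was above 0.1 and SOX10 and S100B were below it, were at 0.33 to 0.45 and 0.75 to 0.79, and GFAP rose by 1.195 (limma adjusted p = 0.000255). The only markers above 0.1 in these sums were COL2A1 and COMP, already counted among the cartilage targets, and GFAP. The endothelial sum rose as well. Any relation of these sums to SOX8 and SOX6 was not tested. Endothelial markers, 4 of 5 in the table (without KDR) and TEK under 0.1, were at 2.26 to 2.73 in vehicle and 3.43 to 7.22 in EZHi. Within that list CDH5 rose by 2.28 (limma adjusted p = 0.00411) and VWF by 1.45 (limma adjusted p = 0.00537), while PECAM1 had a difference of 0.04. Cholangiocyte markers, 4 of 5 in the table (without CFTR) and with SOX9 itself among them, were at 499 to 814 and 616 to 855, and fibroblast markers, 2 of 5 in the table (without COL1A2, DCN and LUM), at 12.2 to 14.97 and 14.7 to 17.2.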

How the data were processed

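RNA-seq of HepG2 cells comprised 4 vehicle and 4 EZHi libraries, grouped and numbered by sample titles; per the study they are independent biological replicates. The authors mapped paired reads of 150 bp to hg38 with HISAT2 (2.2.1 per the submitters' processing notes), kept alignments of quality 10 or more, counted exonic reads per gene with HTSeq (0.9.1) without strand, and removed genes with fewer than 10 reads over all samples. The authors deposited log2 values, namely the regularized log of DESeq2 (1.40.2) corrected for mean transcript length, in a table named as FPKM. This transformation shrinks differences of genes with few reads, so their fold changes are understated. Read depth is unknown, and no counting interval can be given.

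Of 25604 rows 1 repeated a gene, leaving 25603, and 0 columns of values remained without a sample. Estimated FPKM is 2 to the power of the value, divided by 25.6, the mean library sum (24.4 to 27.3) in units of 1000000 normalized reads after multiplication by GENCODE 44 transcript lengths. Normalized reads were obtained by the same multiplication. The 20153 genes whose estimated FPKM averaged 0.1 or more were fitted with limma 3.58.1 in R 4.3.3 (trended prior, group only, two-sided, p-values adjusted over all of them after Benjamini-Hochberg), and the code was tested on simulated data. Python 3.11.15, numpy 2.4.6, pandas 2.3.3 and matplotlib 3.10.9 were also used.

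The members and lists were chosen with earlier results of these data known. Named genes are all SOX genes in the table and, per list, the first gene and up to 4 called genes with the largest difference, together with neighbours that overlap a member or are called, and the 5 genes nearest in profile to the member with the largest difference. MATN3, SEMA3C, LMF1, SSTR5, SSTR5-AS1, TCEA2, SAMD10, C20orf204, ZCCHC3, RBCK1, TBC1D20 and the marker genes were named in addition, after their values were seen. Same-numbered libraries deviated together, with correlations of residuals of 0.310, 0.558, 0.634 and 0.216 for replicates 1 to 4. Between libraries of unlike number these reached 0.199. The study names no block, so the pairing is read from these correlations alone, and a fit with the replicate number as a block was an alternative. The others were filters, another pseudocount scale, 3 scalings, another prior, transcript length and leaving out each library. Some genes of the SOXE and glial lists are not reported here and were left out of the counts.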

Additional observations from a re-analysis of the deposited data

Results flagged for a closer look

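Among the 22 sets of 4 values examined for a library far from its group, 1 was set apart by Dixon's criterion, where chance gives about 1.1. It was SOX18 in EZHi replicate 2, at 8.08 against 7.91 to 7.93 in the other EZHi libraries, a gap of 0.87 of the range of the group. Without this library the SOX18 difference was 0.12 in place of 0.16.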

How the results depend on the processing

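The replicate block raised the count of called SOX genes from 2 to 5, that of all genes from 2644 to 6051 and that of SOX-related list genes from 13 to 21, and that of neighbouring genes from 4 to 12. Among SOX genes it changed the call of SOX4, SOX5 and SOX9 and no other. A filter at an estimated FPKM of 1 left 1579 calls and 0 SOX genes, because SOX6 and SOX8 lie below it. Centring on abundant genes gave 4 SOX calls, adding SOX5 and SOX18. It also moved the calls over all genes from 1784 higher and 860 lower to 2550 higher and 319 lower. The SOX12 difference of -0.02 became 0.065 with quantile normalization and 0.074 with centring, and ran from -0.053 to 0.022 when each library was left out. With 1 library left out, 1811 to 2571 genes and 2 to 3 SOX genes were called, the additional one being SOX5 without EZHi replicate 2. SOX8 and SOX6 were called in all 8 of these fits, at 2.07 to 2.22 and 1.49 to 1.94. Of 156 values for single SOX genes under alternatives, 147 kept their direction and side of the threshold, 6 passed it in addition, 3 changed sign and 0 lost their call. The median of all genes was -0.060 with quantile normalization and 0.088 with centring, so differences as small as the ones of SOX12, SOX13 and SOX18 depend on the scale. With quantile normalization SOX7 was at 0.17 and SOX15 at -0.37, with a pseudocount of 0.5 they were at 0.062 and -0.081, and with centring SOX15 was at -0.084. The fit without a trended prior, the block for neighbouring genes and the level with the longest transcript were chosen after seeing the data. Since depth is unknown, low genes are limited by the shrinkage of the regularized log.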

Other observations

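A further 4 SOX genes were in the table but under the filter. SOX2, a factor of stem and neural progenitor cells, was at 0.14, 0.30, 0.15 and 0.14 in vehicle and at 0.63, 0.57, 0.53 and 0.68 in EZHi. Its groups did not overlap, but these levels correspond to about 2.86 and 3.81 normalized reads per library, and it was not tested. SOX14 was at -1.86 in each vehicle library and at -1.86 to -1.58 in EZHi, and SOX30, a testis gene, was at -2.15 to -2.14 in vehicle and at -2.15 in each EZHi library, both at less than 1 normalized read per library.

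The 5 genes outside the family whose profiles were most like that of SOX8 were HOXC9, TUBB4A, CA12, RRAGD and FYN, by the root mean square difference of vehicle-centred log2 values over the 8 libraries. HOXC9, a gene of the HOXC cluster, was the closest, at 0.084, with a difference of 2.22 beside 2.16 for SOX8. TUBB4A, a neuronal tubulin gene, followed at 0.13, with a difference of 2.22. The distances of CA12, RRAGD and FYN were 0.16, 0.16 and 0.17, with differences of 2.08, 1.94 and 2.29. This measure includes the difference between groups, on which SOX8 had been chosen.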
